A study of Homo sapiens with 12 samples.

Results

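The effect of 100 nM dolastatin 15 on RNA levels of HCT116, a widely used human colorectal carcinoma cell line, was measured at 16 h and at 24 h, and the values below show how that effect changed between the 2 times. Dolastatin 15, a peptide first isolated from a sea hare, keeps tubulin from assembling into microtubules. The series holds 12 RNA sequencing libraries, of which 8 enter the change of the 100 nM effect: 2 treated with 100 nM dolastatin 15 for 16 h (libraries 3 and 4), 2 treated with the solvent DMSO for 16 h (libraries 5 and 6), 2 treated with 100 nM for 24 h (libraries 9 and 10) and 2 treated with DMSO for 24 h (libraries 11 and 12). The other 4 libraries, 20 nM at 16 h (1 and 2) and at 24 h (7 and 8), share in the estimate of the spread and serve as a second dose. All wells, solvent wells included, held 0.25% DMSO. Treatments were made in duplicate, per the labels, which do not say whether duplicates were separate cultures. P-values therefore reflect the spread between such duplicates, which may be technical.

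The table gives FPKM, fragments scaled to transcript length and library size, for 58174 genes, and 13458 genes with at least 1 FPKM in at least 2 of the 12 libraries were tested. Values given in pairs are those of the 2 libraries of a group. The effect of 100 nM at a time is the difference of the group means of log2(FPKM + 1), 100 nM minus solvent. The change of effect is the effect at 24 h minus the effect at 16 h. A gene was called where limma, fitted over all tested genes, gave an adjusted p (Benjamini-Hochberg) below 0.05. Among genes called for the change, an effect is said to have reversed where it was called at both times with opposite signs, to have faded where it was called at 16 h and was larger there, and to have grown where it was called at 24 h and was larger there. Read depth is unknown, so precision rests on pairs of libraries, whose values correlated at 0.9908 to 0.994 within a group (Pearson, log2 scale, across genes). FPKM sums of the 8 libraries lay between 911720.3 and 992039.2 and were lowest in solvent at 24 h (911720.3 and 929714.6). Mitochondrially encoded genes held 22.2% and 24.5% of the sum at 100 nM and 21.6% and 22.2% in solvent at 16 h. At 24 h their share was lower on both sides, with 18.8% and 20.7% at 100 nM and 17.9% and 18.6% in solvent.

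The epithelial identity of the line was visible in all 8 libraries, with EPCAM at 250.6 to 296.84 FPKM, KRT8 at 409.63 to 458.16 FPKM and CLDN7 at 83.67 to 91 FPKM, while CDH1 (E-cadherin) was low at 2.91 to 3.92 FPKM. Of 15 markers of blood, vessel, stroma, liver, islet and glial cells, 3 passed the filter, INS was listed at 0 throughout and PTPRC reached at most 0.02 FPKM. Their summed level was 14.5 and 14.66 FPKM at 100 nM and 13.96 and 14.18 FPKM in solvent at 16 h, and 19.96 and 22.15 FPKM at 100 nM and 15.75 and 18.22 FPKM in solvent at 24 h, in largest part from CD68 (7.04 to 17.31 FPKM). The part of this sum in the results was not tested.

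As background, microtubules build the mitotic spindle, and a cell whose chromosomes are not attached to spindle microtubules is held in mitosis by the spindle assembly checkpoint, which blocks the anaphase-promoting complex and so keeps cyclin B and securin from destruction. A cell held there for long either dies or leaves mitosis without dividing and enters a new G1 phase, where E2F factors raise the genes of DNA replication. Genes used in G2 and mitosis are switched on by MuvB complexes with B-MYB and FOXM1 and are switched off again in G1. RNA of a bulk culture sums over cells in all of these states, so fewer cells in a state and less RNA per cell cannot be told apart in any value below.

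The 100 nM effect changed between 16 h and 24 h for 1368 of the 13458 tested genes (10.2%), higher at 24 h for 790 (5.87%) and lower for 578 (4.29%). The change was at least 1 on the log2 scale for 81 genes, and its median size among called genes was 0.46, while the median over all tested genes was 0.01. The effect reversed for 168 genes (1.25%), 95 from lower to higher (0.706%) and 73 from higher to lower (0.542%). It faded for 474 (3.52%), of which 145 were increases (1.08%) and 329 were decreases (2.44%) at 16 h. It grew for 703 (5.22%), 354 as increases (2.63%) and 349 as decreases (2.59%), and the remaining 23 (0.171%) could not be placed. The effect itself was called for 3205 genes (23.8%) at 16 h and for 4550 (33.8%) at 24 h, and of the 1661 genes called in the same direction at both times 1466 were not called for the change. The split of the 1368 by direction depends on the scaling of the libraries: rescaled to a common sum, 548 were higher and 903 lower, and rescaled to a common sum over nuclear genes, 578 were higher and 875 lower. All 1368 kept their direction when any 1 of the 8 libraries was left out, but calls were fewer, with 632 without library 9, 637 without 10, 641 without 12, 691 without 5, 716 without 11, 723 without 6, 731 without 4 and 966 without 3. The call held in each of these 8 fits for 461 genes. Wherever a gene is named below as changed, its call held in each of the 8 fits unless the libraries that ended the call or the class are given.

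**Figure D1:**
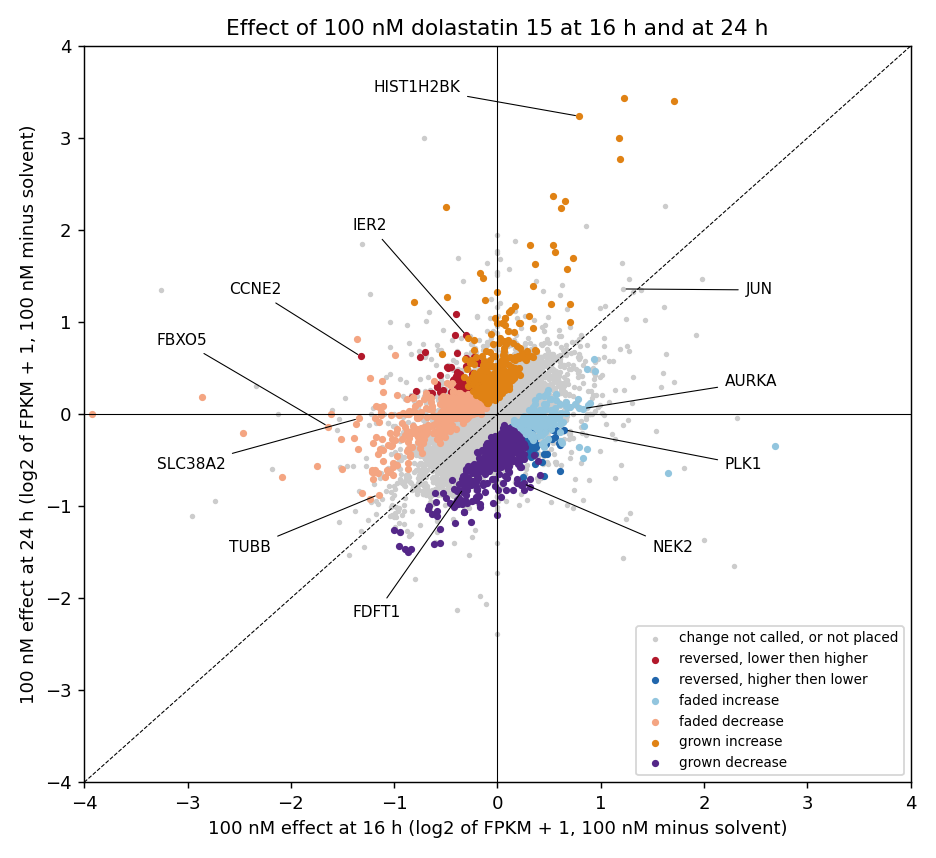
Effect of 100 nM on each of the 13458 tested genes at 16 h (x axis) and at 24 h (y axis), both as log2(FPKM + 1), 100 nM minus solvent, with called genes coloured by class. Genes on the dashed diagonal had the same effect at both times, points left of 0 and above 0 went from lower to higher, and 3 genes lie beyond the axes at 4.

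The values behind the change moved mostly in the 100 nM libraries. Of the 1368 called genes, 1098 had a called difference between 24 h and 16 h at 100 nM in the direction of the change with no opposing call in solvent, 117 had an opposing call in solvent alone, 53 had both and 100 had neither. Over all tested genes, 3693 (27.4%) differed between the times at 100 nM and 756 (5.62%) in solvent. The median shift of the 73 genes that reversed from higher to lower was -0.45 at 100 nM and 0.12 in solvent, and that of the 95 that reversed from lower to higher was 0.50 at 100 nM and -0.08 in solvent. These shifts are parts of the contrast that chose the genes and are given as a description. The 756 calls in solvent fell to between 23 and 98 when any 1 of the 4 solvent libraries was left out.

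**Figure D2:**
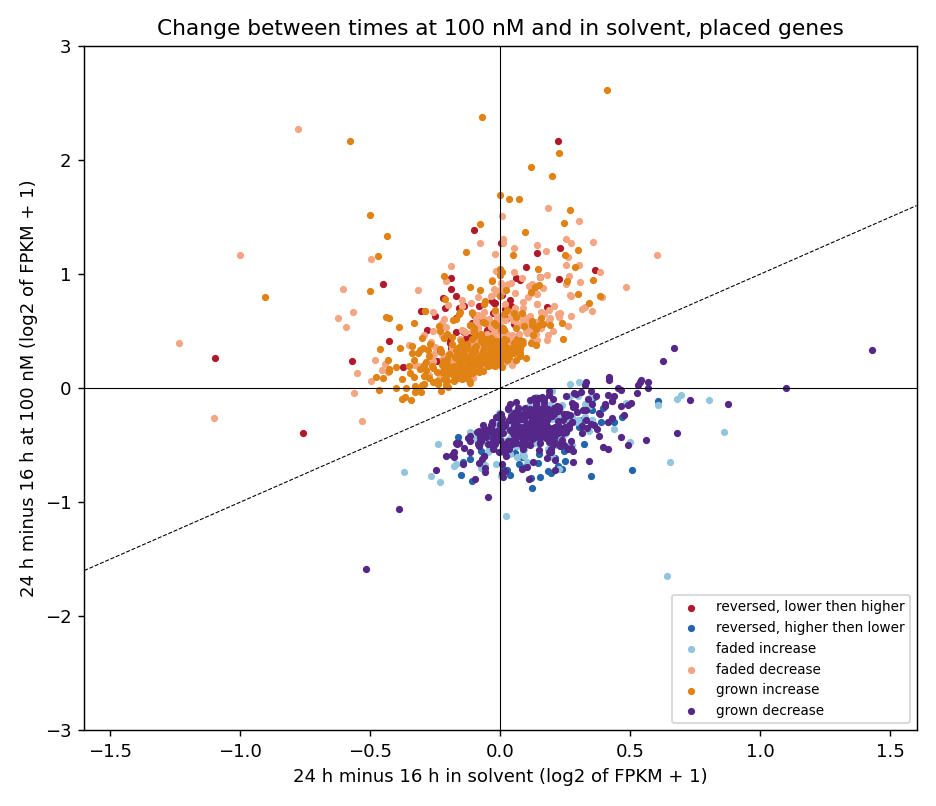
Change between 16 h and 24 h in solvent (x axis, 24 h minus 16 h, log2 of FPKM + 1) and at 100 nM (y axis, same scale) for the 1345 genes placed in a class, coloured by class. The vertical distance from the dashed diagonal is the change of effect; most points spread along the y axis, and 6 genes lie beyond the axes.

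Genes of G2 and mitosis mostly had a lower effect of 100 nM at 24 h than at 16 h. Of 52 such genes, all tested, 40 had a lower effect at 24 h than at 16 h, 3 had a higher one and 9 were not called, against 4.29% lower among all tested genes. Their median effect was 0.29 at 16 h and -0.28 at 24 h, with a median change of -0.50. The 40 comprised 15 increases that faded, 13 that reversed to a decrease and 12 decreases that grew. Under each alternative and without each library, the class of the reversals held more often than that of the others. The number lower stayed between 30 and 38 without any 1 library and between 41 and 43 under the other scalings.

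PLK1, the polo-like kinase that drives entry into and progress through mitosis (chromosome 16, 23677656 to 23690367), had 256 and 265 FPKM at 100 nM and 167 and 165 FPKM in solvent at 16 h. PLK1 had 169.6 and 171 FPKM at 100 nM and 192 and 192 FPKM in solvent at 24 h. The treated libraries lay above solvent at 16 h and below it at 24 h, with no overlap at either time. The effect of 0.65 at 16 h became -0.17 at 24 h (change -0.82, SE 0.05, limma adjusted p = 9.09e-05).

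NEK2, a kinase that separates centrosomes (chromosome 1, 211658657 to 211675630), measured 58.8 and 60.1 FPKM at 100 nM and 50.03 and 49.9 FPKM in solvent at 16 h. NEK2 measured 31.7 and 32.0 FPKM at 100 nM and 55.2 and 53.6 FPKM in solvent at 24 h. Its effect went past 0 in the same way, with 0.25 at 16 h and -0.75 at 24 h (change -1.001, SE 0.06, limma adjusted p = 9.09e-05). Treated libraries were the highest at 16 h and the lowest at 24 h.

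Of the other reversals in the list, CENPE, a kinesin that carries chromosomes to the spindle equator (chromosome 4, 103105806 to 103198409), had effects of 0.43 at 16 h and -0.52 at 24 h (change -0.94, SE 0.10, limma adjusted p = 0.00144). HMMR, a spindle-associated hyaluronan receptor (chromosome 5, 163460203 to 163491945), stood at 29.8 and 35.3 FPKM at 100 nM and 24.0 and 22.2 FPKM in solvent at 16 h, and at 19.3 and 19.1 FPKM at 100 nM and 26.4 and 26.2 FPKM in solvent at 24 h. That is an increase at 16 h and a decrease at 24 h (change -0.91, SE 0.11, limma adjusted p = 0.00245). KIF14, a kinesin of cytokinesis, changed by -0.91 (SE 0.09, limma adjusted p = 0.00101). The checkpoint kinases BUB1 and BUB1B had effects of 0.34 and 0.38 at 16 h and -0.40 and -0.35 at 24 h. Cyclin A2 (CCNA2), which acts in S phase and G2, had 0.30 at 16 h and -0.21 at 24 h, and CDCA8, a chromosomal passenger protein, had 0.32 and -0.21. Of the 13 reversals in the list, 9 kept their class under each alternative and without each library, namely PLK1, NEK2, CENPE, HMMR, KIF14, BUB1, BUB1B, CCNA2 and CDCA8.

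Outside the list, the rule for named genes added GAS2L3, SGO2 and ASPM to the reversals from higher to lower. GAS2L3, which links actin and microtubules at the midbody (chromosome 12, 100573683 to 100628286), had 13.8 and 14.3 FPKM at 100 nM and 10.0 and 10.0 FPKM in solvent at 16 h, and 8.05 and 7.62 FPKM at 100 nM and 12.8 and 13.2 FPKM in solvent at 24 h. Treated libraries stood above solvent at 16 h and below it at 24 h without overlap (change -1.12, SE 0.09, limma adjusted p = 0.000376). SGO2, a shugoshin of the centromere (chromosome 2, 200510008 to 200583782), had effects of 0.61 at 16 h and -0.33 at 24 h (change -0.94, SE 0.09, limma adjusted p = 0.000665). ASPM, a spindle-pole protein (chromosome 1, 197084128 to 197146694), had effects of 0.25 and -0.69 (change -0.94, SE 0.10, limma adjusted p = 0.00111), and its reversal was not called without library 3, 4, 5 or 6 or with no filter on low values.

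Kinases and cyclins of mitotic entry were among the increases that faded. AURKA, the centrosomal Aurora kinase (chromosome 20, 56369389 to 56392337), had 199.8 and 199 FPKM at 100 nM and 113 and 111 FPKM in solvent at 16 h. AURKA had 120.4 and 113 FPKM at 100 nM and 113 and 111 FPKM in solvent at 24 h. The pairs were far apart at 16 h and close at 24 h (change -0.77, SE 0.06, limma adjusted p = 0.000162). CCNB1, cyclin B1 (chromosome 5, 69167010 to 69178245), had 511 and 530.0 FPKM at 100 nM and 314 and 292 FPKM in solvent at 16 h, and 328 and 323 FPKM at 100 nM and 289.9 and 292 FPKM in solvent at 24 h. An effect of 0.78 thus shrank to 0.16 (change -0.62, SE 0.06, limma adjusted p = 0.000682). The cytokinesis kinesin KIF20A had 0.79 at 16 h and 0.06 at 24 h, and BORA, an activator of Aurora A, had 0.69 and 0.08. CENPA, the histone H3 variant of centromeres, had 0.49 and -0.06.

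For 12 members the effect grew as a decrease. KIF2C, a kinesin that takes microtubules apart (chromosome 1, 44739818 to 44767767), had 88.0 and 88.8 FPKM at 100 nM and 86.7 and 85.6 FPKM in solvent at 16 h, and 58.0 and 58.7 FPKM at 100 nM and 89.0 and 86.1 FPKM in solvent at 24 h. It was level with solvent at 16 h and below it at 24 h (change -0.61, SE 0.05, limma adjusted p = 0.000336). PRC1, which bundles microtubules of the central spindle, had effects of 0.20 at 16 h, which was not called, and -0.54 at 24 h. CDC25C, a phosphatase that activates CDK1, had -0.32 and -1.06. The chromosomal passenger genes AURKB and INCENP were below solvent at both times, with -0.46 and -0.60 at 16 h and -0.96 and -0.96 at 24 h. ANLN, anillin of the contractile ring (chromosome 7, 36389806 to 36453791), had effects of 0.15 at 16 h, not called, and -0.83 at 24 h (change -0.98, SE 0.21, limma adjusted p = 0.0213), a call that ended without library 4, 6, 9, 10, 11 or 12 (limma adjusted p up to 0.073) and with no filter on low values.

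CDK1, BUB3 and FBXO5 went against the rest of the list. FBXO5 encodes EMI1, an inhibitor of the anaphase-promoting complex that is made from late G1 on (chromosome 6, 152970519 to 152983579). FBXO5 had 11.5 and 11.6 FPKM at 100 nM and 38.5 and 37.6 FPKM in solvent at 16 h, and 34.6 and 34.9 FPKM at 100 nM and 36.3 and 40.3 FPKM in solvent at 24 h. Treated libraries were far below solvent at 16 h and slightly below it at 24 h. The effect was -1.64 at 16 h and -0.14 at 24 h (change 1.502, SE 0.07, limma adjusted p = 3.99e-05). CDK1, the kinase partner of cyclin B, had 29.9 and 26.7 FPKM at 100 nM and 73.2 and 70.2 FPKM in solvent at 16 h, and 34.0 and 33.3 FPKM at 100 nM and 62.3 and 61.5 FPKM in solvent at 24 h. It stayed below solvent with a smaller gap (change 0.45, SE 0.08, limma adjusted p = 0.00906). BUB3, a checkpoint protein, moved the same way (change 0.47, SE 0.09, limma adjusted p = 0.0154), a call that ended without library 6, 9 or 12 (limma adjusted p up to 0.0591). CDC20, which activates the anaphase-promoting complex, had effects of 0.65 at 16 h and 0.35 at 24 h, and its change of -0.30 was not called (limma adjusted p = 0.0714). FOXM1 itself had 0.05 and -0.01.

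**Figure D3:**
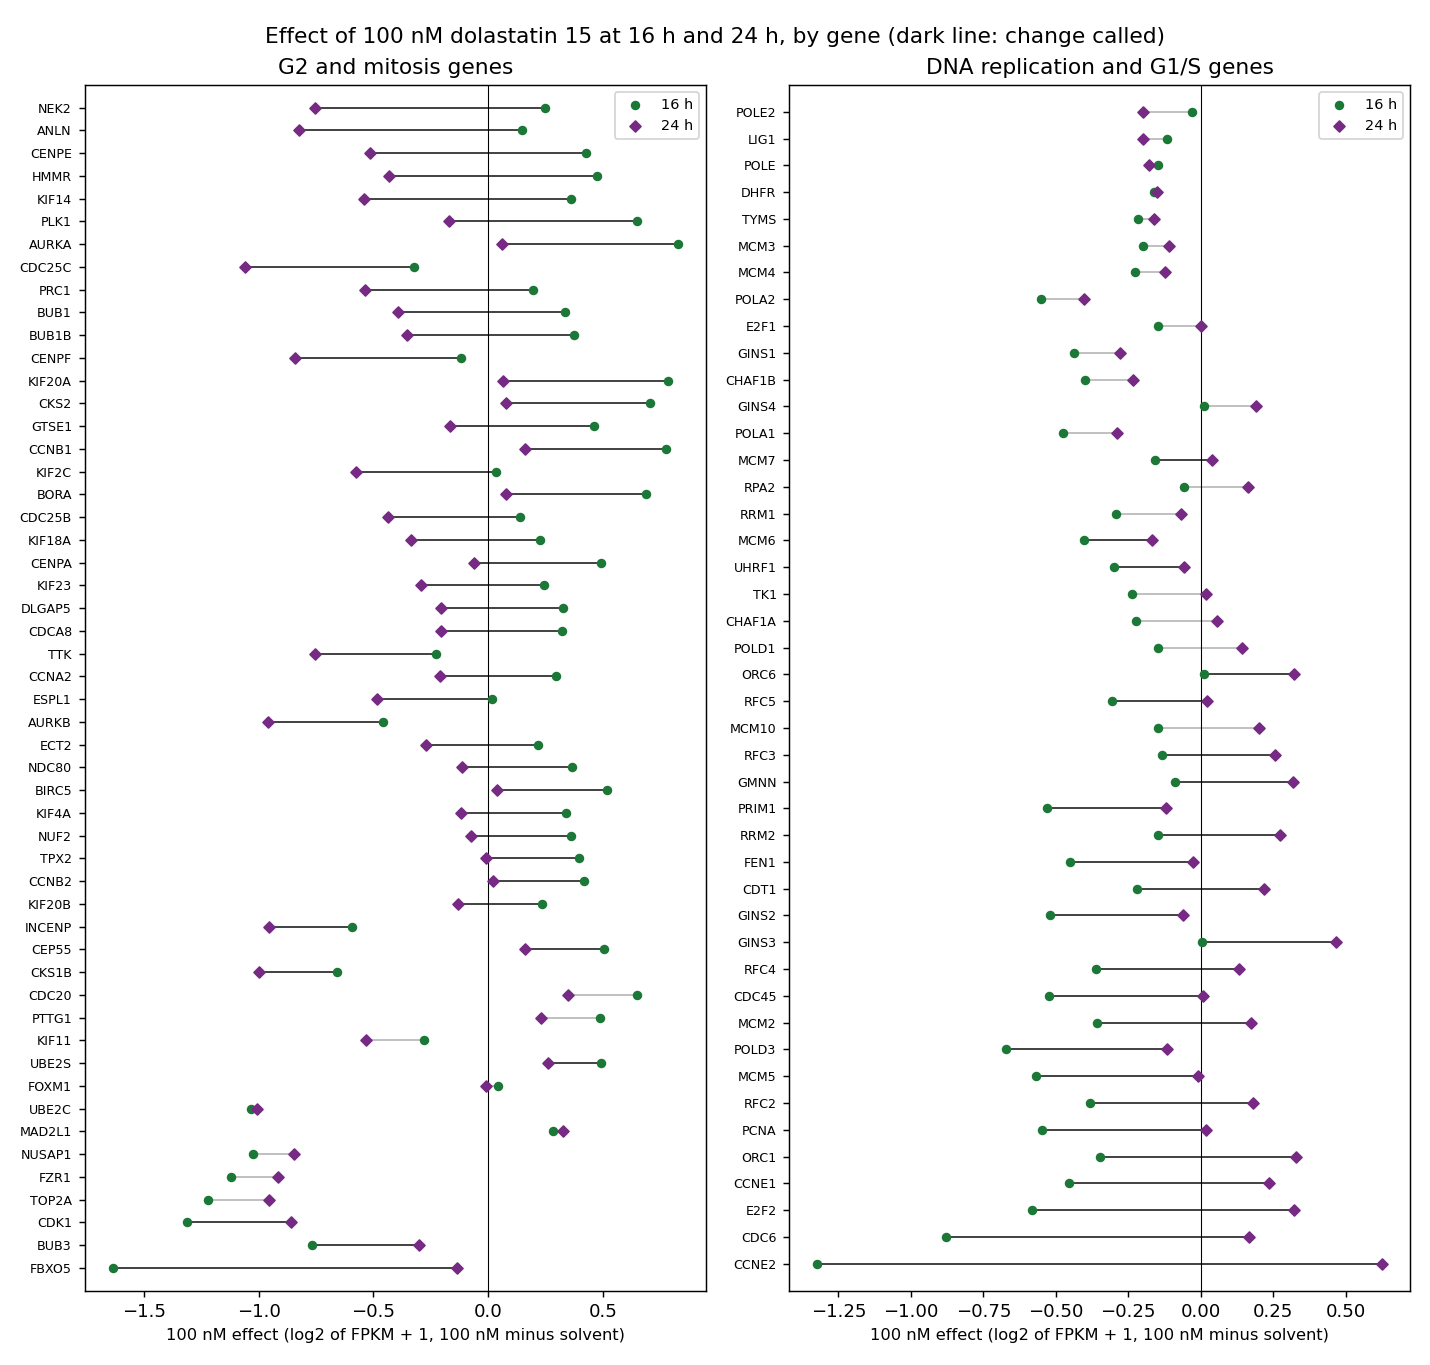
Effect of 100 nM at 16 h (circles) and at 24 h (diamonds) for each tested member of the G2 and mitosis list (left) and of the DNA replication and G1/S list (right), as log2(FPKM + 1), 100 nM minus solvent, ordered by the change. Dark lines mark called changes: 40 of 52 mitosis genes shifted to the left and 25 of 44 replication genes to the right.

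The promoter windows of HMMR and PLK1 are shown as examples. Both effects reversed in every fit, and both windows carry letters known from cell-cycle promoters. The CHR element, TTTGAA, is where MuvB complexes bind, and the CCAAT box is where NF-Y binds. Both were searched on either strand in the 300 bases from 250 before to 50 after the start of each gene (RefSeq, GRCh38.p14), and capitals mark the matches, which overlap at 1 place in HMMR.
HMMR (chr5:163460382-163460681, plus strand): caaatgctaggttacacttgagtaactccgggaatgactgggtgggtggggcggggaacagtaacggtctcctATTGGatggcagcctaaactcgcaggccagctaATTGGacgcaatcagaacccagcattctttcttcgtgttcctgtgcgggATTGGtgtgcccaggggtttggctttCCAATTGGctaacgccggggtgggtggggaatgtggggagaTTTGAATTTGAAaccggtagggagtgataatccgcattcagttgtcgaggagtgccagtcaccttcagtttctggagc
PLK1 (chr16:23678639-23678938, plus strand): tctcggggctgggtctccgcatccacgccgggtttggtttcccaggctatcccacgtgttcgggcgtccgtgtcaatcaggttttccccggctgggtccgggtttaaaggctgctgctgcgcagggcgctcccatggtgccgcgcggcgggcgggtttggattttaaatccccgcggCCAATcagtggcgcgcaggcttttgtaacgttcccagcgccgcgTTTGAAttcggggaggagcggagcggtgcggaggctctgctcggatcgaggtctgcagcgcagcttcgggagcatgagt
In PLK1 the CHR match began at position -29 and the CCAAT match at -73 from the start. Other reversals of the list that kept their class in every fit are not shown. KIF14, BUB1B and CDCA8 had a CHR match, which in KIF14 began at position 2. NEK2, CENPE, BUB1 and CCNA2 had no CHR match. Windows were found for 9934 of the 13458 tested genes. CHR letters stood in 32 of 45 windows of the mitosis list (71.1%), in 32.8% of windows of genes that reversed from higher to lower, in 27% of increases that faded, in 8.75% of windows without a called change and in 15.4% of all 27305 RefSeq windows. The CHR share was 11.6% among decreases that grew and 12% among genes that reversed from lower to higher. CCAAT letters stood in 77.8% of the mitosis windows and in 37% of the windows of tested genes. They were not particular to this list. Windows of endoplasmic reticulum chaperones held them in 89.5%, those of clustered histones in 85.7% and those of cholesterol genes in 83.3%. Each other list searched had a lower share than the mitosis list. Within the mitosis list the 32 genes with a CHR match had a median change of -0.49 and the 13 without one had -0.61. A match is a description of letters and not of binding.

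Genes of DNA replication and G1/S had a higher effect of 100 nM at 24 h than at 16 h. Of 44 such genes, all tested, 25 had a higher effect at 24 h, 0 a lower one and 19 were not called, against 5.87% higher among all tested genes. The count lower was 0 at an unadjusted limma p under 0.05 too, without each library in turn and under each other setting. Their median effect was -0.30 at 16 h and 0.02 at 24 h (median change 0.32). Decreases that faded made up 13 of the 25, reversals 7 and grown increases 5. Of the 7 reversals, CCNE2 and ORC1 alone kept their class under each alternative and without each library. Rescaled to a common sum, the reversals CCNE1, CDT1, MCM2 and RFC2 lost theirs. So did the faded MCM6, MCM7 and UHRF1 and the grown RFC3 and RRM2. MCM6 also lost its class without each of the 8 libraries in turn. MCM7 and UHRF1 lost theirs without library 4, 5, 6, 9, 10, 11 or 12. The reversal of CDT1 was not called without library 4, 5, 10, 11 or 12, and that of RFC2 without library 9, 10 or 11. The number higher was 20 to 24 without any 1 library and 22 to 25 under the other scalings.

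CCNE2, a cyclin E that partners CDK2 at the start of S phase on chromosome 8, had the largest change of the 10 reversals named by rule. CCNE2 measured 11.98 and 11.4 FPKM at 100 nM and 29.4 and 32.0 FPKM in solvent at 16 h. CCNE2 measured 52.5 and 59.7 FPKM at 100 nM and 39.2 and 32.8 FPKM in solvent at 24 h. It was well below solvent at 16 h and above both solvent libraries at 24 h, with effects of -1.32 and 0.63 (change 1.95, SE 0.14, limma adjusted p = 0.000162). CCNE1, the other cyclin E, had effects of -0.45 at 16 h and 0.23 at 24 h (change 0.69, SE 0.10, limma adjusted p = 0.00366), but its reversal was not called under rescaling to a common sum, with no filter on low values or without library 9, 10, 11 or 12.

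CDC6, which loads the replicative helicase onto origins (chromosome 17, 40287633 to 40304657), had 69.4 and 66.1 FPKM at 100 nM and 130.5 and 120.3 FPKM in solvent at 16 h. CDC6 had 140.0 and 139 FPKM at 100 nM and 130.4 and 118 FPKM in solvent at 24 h. Treated libraries were below solvent at 16 h and slightly above it at 24 h (change 1.046, SE 0.09, limma adjusted p = 0.000443). ORC1, the origin recognition subunit that is made anew in G1, had effects of -0.35 and 0.33, and E2F2, a transcription factor of S phase genes, had -0.58 and 0.32, although the reversal of E2F2 was not called without library 10. The helicase subunit MCM2 had -0.36 and 0.17, a reversal not called under rescaling to a common sum or without library 10 or 12, and MCM5 had -0.57 and -0.01. GMNN, geminin that blocks licensing outside G1, had -0.09 and 0.32.

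PCNA, the sliding clamp (chromosome 20, 5114953 to 5126626), had 230.2 and 229 FPKM at 100 nM and 341 and 332 FPKM in solvent at 16 h, and 336 and 329 FPKM at 100 nM and 324 and 332 FPKM in solvent at 24 h. The groups were apart at 16 h and overlapped at 24 h (change 0.57, SE 0.06, limma adjusted p = 0.00122). FEN1, the flap nuclease, had effects of -0.45 and -0.03, the primase PRIM1 -0.53 and -0.12, and the clamp loader subunit RFC4 -0.36 and 0.13. RRM2, the ribonucleotide reductase subunit that supplies deoxynucleotides, had -0.15 at 16 h and 0.27 at 24 h (change 0.42, SE 0.08, limma adjusted p = 0.0113). E2F1 itself had -0.15 and 0.00, a change of 0.15 that was not called (limma adjusted p = 0.357).

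The windows of CDC6 and PCNA are shown as examples of the E2F letters in this list. TTTCCCGC and TTTGGCGC were searched on either strand, and capitals mark them.
CDC6 (chr17:40287629-40287928, plus strand): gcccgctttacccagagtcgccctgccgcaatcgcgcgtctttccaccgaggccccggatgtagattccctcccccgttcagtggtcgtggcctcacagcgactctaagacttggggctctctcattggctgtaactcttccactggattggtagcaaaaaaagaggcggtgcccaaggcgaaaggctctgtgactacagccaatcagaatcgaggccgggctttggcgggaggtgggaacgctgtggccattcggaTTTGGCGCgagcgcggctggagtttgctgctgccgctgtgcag
PCNA (chr20:5126573-5126872, minus strand): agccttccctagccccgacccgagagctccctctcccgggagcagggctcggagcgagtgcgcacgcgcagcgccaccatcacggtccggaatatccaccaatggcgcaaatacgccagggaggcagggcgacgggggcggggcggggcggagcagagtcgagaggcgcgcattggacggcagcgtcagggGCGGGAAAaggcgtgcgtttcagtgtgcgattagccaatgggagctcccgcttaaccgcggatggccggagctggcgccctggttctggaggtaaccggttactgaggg
These letters stood in 18 of 37 windows of the replication list (48.6%), in 3.85% of windows of tested genes and in 2.31% of all RefSeq windows. They stood in 8.4% of windows of decreases that faded and in 6.67% of windows of genes that reversed from lower to higher. Increases that grew had them in 4.51% of windows, and genes that reversed from higher to lower in 1.56%. Inside the list, the 18 genes with a match had a median change of 0.22 and the 19 without one had 0.41.

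The 5 increases that grew named by rule were all histone genes. Clustered histone genes encode the core and linker histones of S phase, and most of their mRNA ends in a stem-loop and not in a poly(A) tail, so poly(A) selection captures it poorly and the levels depend on that step. Of 23 listed, 15 passed the filter, and as a gene high in 1 group could pass through that group, the following count is a description: 11 had a higher effect at 24 h, 0 a lower one (also 0 at an unadjusted limma p under 0.05) and 4 were not called. Among all tested genes 5.87% had a higher effect at 24 h. The median effect of the 15 was 0.36 at 16 h and 1.63 at 24 h. Copies of nearly the same sequence share reads, so the level of any single gene is uncertain.

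HIST1H2BK, an H2B gene (chromosome 6, 27146418 to 27146798), had 43.8 and 39.6 FPKM at 100 nM and 24.6 and 22.7 FPKM in solvent at 16 h. HIST1H2BK had 225 and 216 FPKM at 100 nM and 17.7 and 28.5 FPKM in solvent at 24 h. Treated libraries were above solvent at both times and much further above it at 24 h, with effects of 0.79 and 3.24 (change 2.45, SE 0.26, limma adjusted p = 0.00124). HIST2H2AA4, an H2A gene outside the list (chromosome 1, 149851061 to 149851624), had 19.9 and 17.1 FPKM at 100 nM and 7.13 and 7.52 FPKM in solvent at 16 h, and 119.6 and 118 FPKM at 100 nM and 9.35 and 10.8 FPKM in solvent at 24 h (change 2.21, SE 0.14, limma adjusted p = 0.000106). The linker histone gene HIST1H1C had effects of 0.54 and 2.37, and HIST1H2AC changed by 1.82 (SE 0.20, limma adjusted p = 0.00135). HIST1H2BO, the gene with the largest change by the rule, was low, with 0.45 and 1.17 FPKM at 100 nM and 2.30 and 0.90 FPKM in solvent at 16 h and 7.68 and 6.33 FPKM at 100 nM and 1.02 and 0.39 FPKM in solvent at 24 h (change 2.75, SE 0.43, limma adjusted p = 0.00626).

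Immediate early genes, which answer growth factor and stress signals within minutes through ERK and SRF, had higher effects at the later time. Of 23 listed, all tested, 14 had a higher effect at 24 h, 0 a lower one (also 0 at an unadjusted limma p under 0.05) and 9 were not called, against 5.87% higher among all tested genes. Their median effect was -0.22 at 16 h and 0.62 at 24 h. Without 1 library the 14 fell to as few as 9 (libraries 3, 5, 9, 10, 11 and 12 each moved the count by over 1.5 times), and the highest such count was 13.

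IER2, an early response transcription factor (chromosome 19, 13150415 to 13154908), had 71.8 and 68.2 FPKM at 100 nM and 87.0 and 86.0 FPKM in solvent at 16 h. IER2 had 139.8 and 136 FPKM at 100 nM and 76.8 and 74.6 FPKM in solvent at 24 h. Treated libraries were below solvent at 16 h and far above it at 24 h (change 1.16, SE 0.09, limma adjusted p = 0.000171), and its reversal was not called without library 4. JUNB, an AP-1 subunit (chromosome 19, 12791496 to 12793315), was level with solvent at 16 h, with 28.98 and 26.8 FPKM at 100 nM and 28.8 and 29.3 FPKM in solvent. JUNB stood at 62.5 and 65.5 FPKM at 100 nM and 34.0 and 35.4 FPKM in solvent at 24 h (change 0.92, SE 0.08, limma adjusted p = 0.00046). MYC, a growth regulator, reversed with effects of -0.35 at 16 h and 0.27 at 24 h (change 0.62, SE 0.07, limma adjusted p = 0.00196), and IER3 had -0.23 and 0.62, a reversal not called without library 3 or 5. KLF6 and JUND were decreases that faded, with -0.79 and -1.06 at 16 h and 0.01 and -0.34 at 24 h. JUN, by contrast, was higher by 1.21 at 16 h and by 1.36 at 24 h, and its change of 0.15 was not called (95% confidence interval -0.03 to 0.33, limma adjusted p = 0.276).

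The nuclear receptors NR4A2 and NR1D1 reversed too. NR4A2 (chromosome 2, 156324432 to 156342348) had 3.17 and 4.41 FPKM at 100 nM and 5.21 and 5.42 FPKM in solvent at 16 h, and 10.2 and 10.8 FPKM at 100 nM and 5.19 and 5.48 FPKM in solvent at 24 h (change 1.27, SE 0.17, limma adjusted p = 0.00304), but the reversal was not called without library 3, 5, 6, 9, 10, 11 or 12 or with no filter on low values. NR1D1, the clock repressor REV-ERB alpha (chromosome 17, 40092787 to 40100725), had 5.05 and 5.66 FPKM at 100 nM and 7.35 and 7.38 FPKM in solvent at 16 h, and 15.7 and 15.4 FPKM at 100 nM and 6.63 and 6.99 FPKM in solvent at 24 h. Treated libraries were below solvent at 16 h and above it at 24 h in every pairing (change 1.48, SE 0.09, limma adjusted p = 6.65e-05). GPRC5A, an orphan receptor (chromosome 12, 12890782 to 12917937), had effects of -0.70 and 0.67 (change 1.37, SE 0.07, limma adjusted p = 6.14e-05).

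Genes that report on ERK signalling shifted in the same direction in part, with 7 of 19 tested higher, 1 lower and 11 not called, against 5.87% higher and 4.29% lower among all tested genes. DUSP6, a phosphatase that ERK induces and that inactivates ERK (chromosome 12, 89347232 to 89353271), had 13.2 and 13.4 FPKM at 100 nM and 29.1 and 31.6 FPKM in solvent at 16 h, and 33.2 and 33.1 FPKM at 100 nM and 34.6 and 32.4 FPKM in solvent at 24 h. The groups were far apart at 16 h and overlapped at 24 h (change 1.12, SE 0.11, limma adjusted p = 0.00101). The epidermal growth factor receptor ligands EREG and AREG had effects of -0.39 and -0.24 at 16 h and 0.29 and 0.44 at 24 h, and the reversal of AREG was not called without library 4, 5 or 6. Their relative HBEGF was the exception, with 0.66 at 16 h and 0.01 at 24 h (change -0.65, SE 0.11, limma adjusted p = 0.0093).

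**Figure D4:**
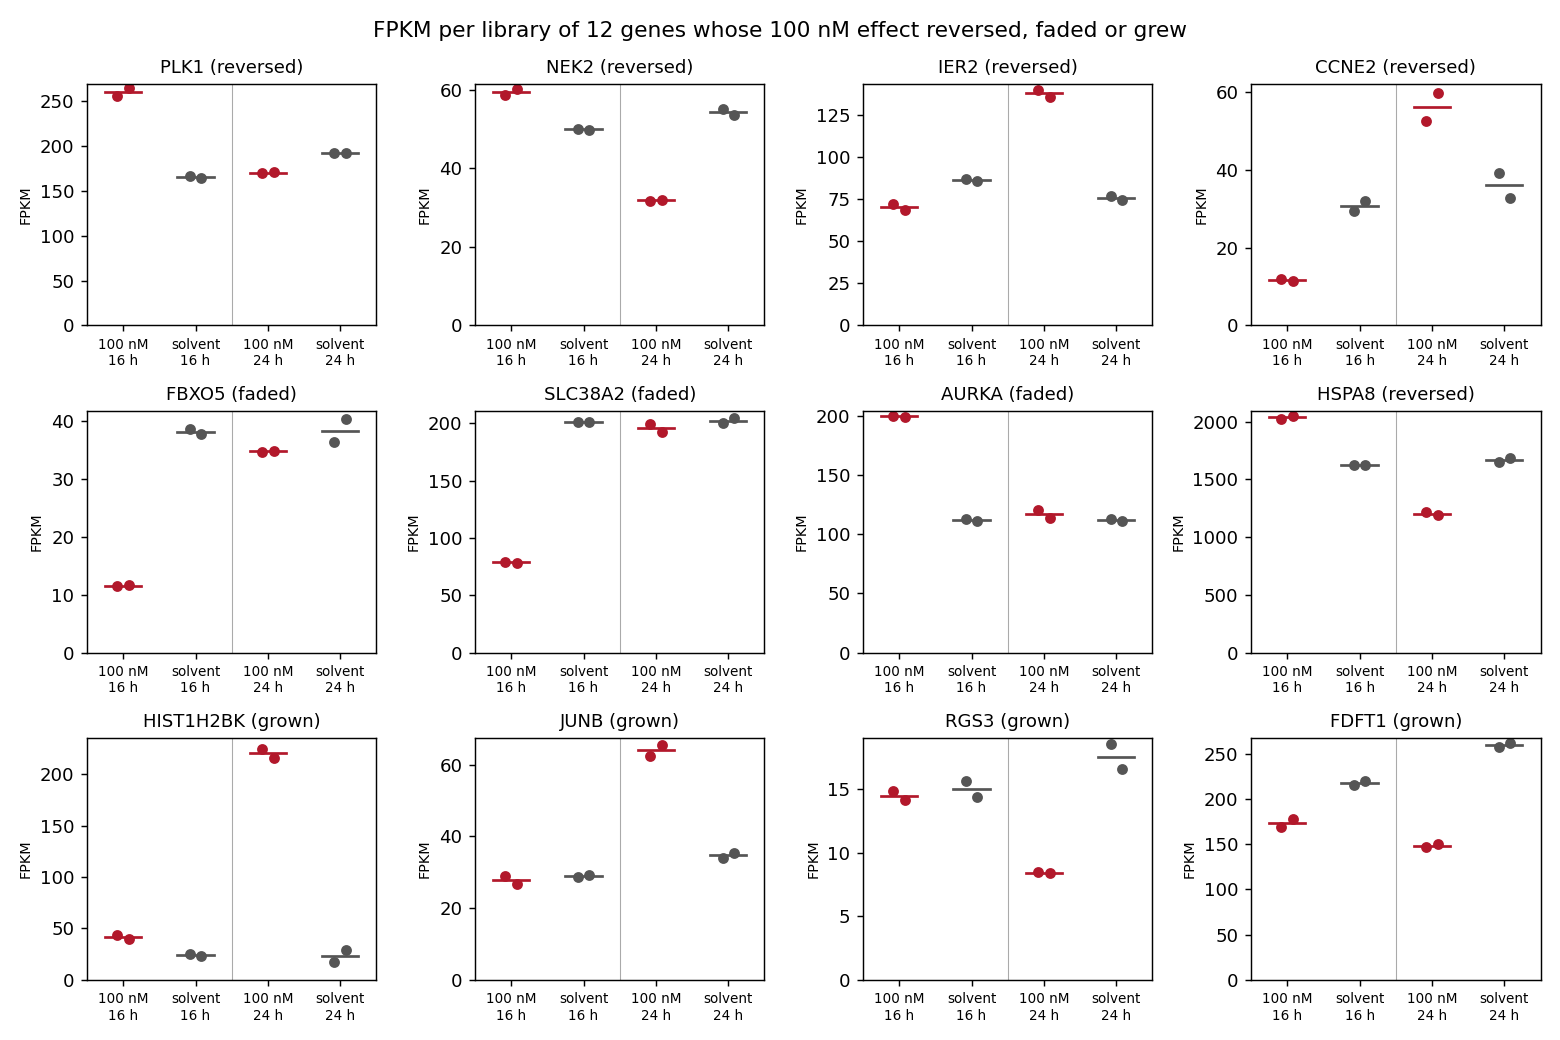
FPKM (y axis, from 0) in each library of 12 genes, with the 100 nM libraries in red left of their solvent libraries in grey, 16 h left of the line and 24 h right of it, and bars at the group means (n = 2). PLK1, NEK2, HSPA8, IER2 and CCNE2 cross their solvent level between the times, AURKA, FBXO5 and SLC38A2 return to it, and HIST1H2BK, JUNB, RGS3 and FDFT1 move away from it.

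Heat shock chaperones, which fold proteins and are induced by HSF1, had lower effects at the later time where they were called. Of 14 listed, all tested, 6 had a lower effect at 24 h, 0 a higher one (also 0 at an unadjusted limma p under 0.05) and 8 were not called, against 4.29% lower among all tested genes. Their median effect was 0.13 at 16 h and -0.15 at 24 h. HSPA8, the constitutive HSC70 chaperone (chromosome 11, 123057489 to 123063230), had 2025 and 2052 FPKM at 100 nM and 1624 and 1625 FPKM in solvent at 16 h. HSPA8 had 1219 and 1191 FPKM at 100 nM and 1649 and 1689 FPKM in solvent at 24 h. Treated libraries were highest of the 4 pairs at 16 h and lowest at 24 h (change -0.80, SE 0.06, limma adjusted p = 0.000162). BAG3, a co-chaperone of HSP70, reversed as well, with effects of 0.56 and -0.25 (change -0.81, SE 0.05, limma adjusted p = 0.000107). DNAJB1, an HSP40 co-chaperone, and HSPA1B, an inducible HSP70 with a near-identical copy in HSPA1A, were decreases that grew, with -0.21 and -0.41 at 16 h and -0.92 and -1.19 at 24 h. HSP90AA1 had 0.07 and -0.06, and its change was not called (limma adjusted p = 0.0896).

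The HSPA8 window is shown for its pair of heat shock elements. GAANNTTCNNGAA, where N is any base, was searched on either strand and is marked in capitals.
HSPA8 (chr11:123062087-123062386, minus strand): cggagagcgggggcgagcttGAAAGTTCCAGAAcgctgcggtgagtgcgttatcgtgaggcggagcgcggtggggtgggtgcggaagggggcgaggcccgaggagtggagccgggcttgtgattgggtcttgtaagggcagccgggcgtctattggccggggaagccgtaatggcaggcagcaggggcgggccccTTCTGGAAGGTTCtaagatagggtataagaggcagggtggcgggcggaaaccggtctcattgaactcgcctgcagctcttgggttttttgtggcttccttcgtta
The element stood in 2 of 13 windows of the heat shock list, in 0.292% of windows of tested genes and in 0.487% of all RefSeq windows.

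Cholesterol synthesis and uptake genes, which SREBP2 induces when sterols are scarce, held decreases that grew. Of 23 tested of 24 listed, 9 had a lower effect at 24 h, 0 a higher one (also 0 at an unadjusted limma p under 0.05) and 14 were not called, against 4.29% lower among all tested genes. The median effect was -0.08 at 16 h and -0.30 at 24 h. The 9 became 3 to 6 without 1 library, by over 1.5 times fewer without library 4, 5, 6, 9, 10, 11 or 12. FDFT1, squalene synthase, had 169 and 178 FPKM at 100 nM and 215 and 220.2 FPKM in solvent at 16 h, and 146 and 149.9 FPKM at 100 nM and 258 and 262 FPKM in solvent at 24 h. Treated libraries were below solvent at both times, with a wider gap at 24 h (change -0.48, SE 0.05, limma adjusted p = 0.00139). MSMO1, a sterol oxidase, had effects of -0.08 and -0.52.

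**Figure D5:**
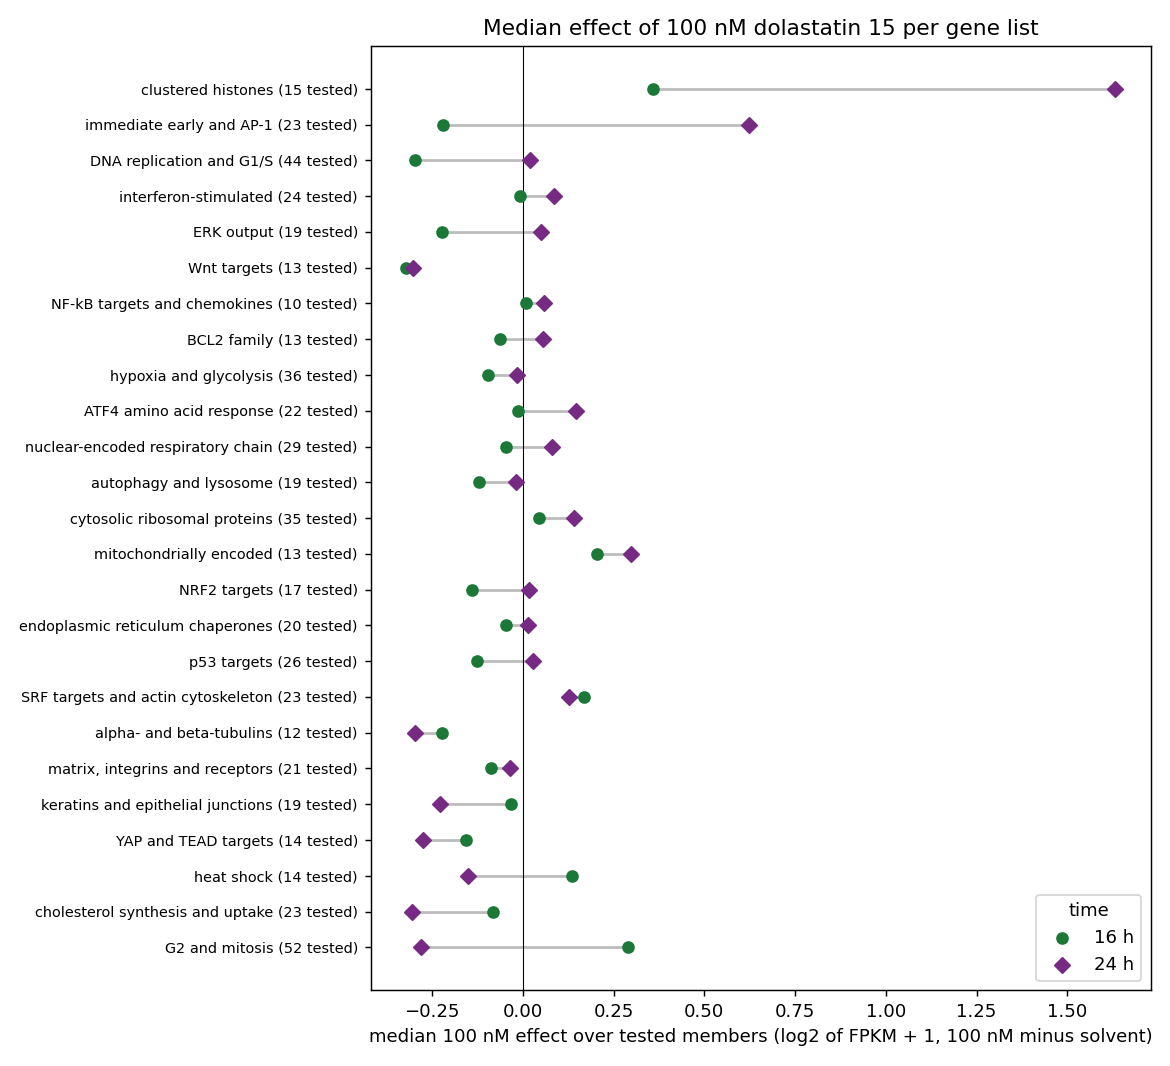
Median effect of 100 nM over the tested members of each gene list at 16 h (circles) and 24 h (diamonds), as log2(FPKM + 1), 100 nM minus solvent, ordered by the median change. Clustered histones end highest at 1.63, and G2 and mitosis and heat shock genes cross from above 0 to below it.

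Other lists held a few called genes each. Among interferon-stimulated genes, 3 of 24 tested were called, each higher, against 5.87% higher among all tested genes. One was IFIT2, an antiviral translation inhibitor (chromosome 10, 89283694 to 89309276), with 0.66 and 0.56 FPKM at 100 nM and 0.33 and 0.25 FPKM in solvent at 16 h and 3.37 and 3.37 FPKM at 100 nM and 0.24 and 0.20 FPKM in solvent at 24 h. The gene was under 1 FPKM in 6 of these 8 libraries and passed the filter through 100 nM at 24 h and through 20 nM, where it had 1.17 and 1.18 FPKM at 16 h and 3.01 and 3.41 FPKM at 24 h, so its change is given as a description (change 1.52, SE 0.15, limma adjusted p = 0.000829). NFKBIA, the inhibitor of NF-kB, was a decrease that faded, with effects of -0.93 and -0.10 (change 0.83, SE 0.07, limma adjusted p = 0.000491), 1 of 2 called among 10 tested NF-kB targets. CTGF, a YAP and TEAD target, was a decrease that faded, with effects of -1.51 and -0.27 (change 1.24, SE 0.12, limma adjusted p = 0.00101), 1 of 2 higher beside 2 lower among 14 tested. The 2 lower calls ended without each of the 8 libraries in turn. P4HA2, a collagen prolyl hydroxylase, was the 1 called gene of 36 tested hypoxia and glycolysis genes, with -0.56 and -1.25 (change -0.69, SE 0.12, limma adjusted p = 0.00995). CHAC1, which degrades glutathione and is induced by ATF4, had 1.51 and 1.74 FPKM at 100 nM and 2.45 and 2.42 FPKM in solvent at 16 h, and 3.64 and 3.92 FPKM at 100 nM and 2.07 and 1.95 FPKM in solvent at 24 h (change 1.06, SE 0.13, limma adjusted p = 0.00226). It was below solvent at 16 h and above it at 24 h, a reversal not called without library 3, 5 or 6. CHAC1 is 1 of 5 called higher among 22 tested ATF4 targets, a count that was smaller without any 1 library.

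Of 13 tested BCL2 family genes, which govern cell death at mitochondria, 3 were called, each higher. Of 26 tested p53 targets, 2 were higher and 1 lower. The shares among all tested genes were 5.87% higher and 4.29% lower. The BCL2 family count was smaller without library 5, 9 or 12. Fewer p53 targets were higher without library 3, 4, 5, 9, 10 or 11. BCL2L11, which encodes the death-promoting BIM (chromosome 2, 111119378 to 111168447), had 4.91 and 5.18 FPKM at 100 nM and 8.4 and 7.22 FPKM in solvent at 16 h, and 17.5 and 13.6 FPKM at 100 nM and 10.7 and 8.28 FPKM in solvent at 24 h. It was below solvent first, an effect not called, and above it later (change 1.198, SE 0.24, limma adjusted p = 0.0181). The call of the change ended without library 3, 5, 9 or 12 and with no filter on low values. BCL2L11 was classed as an increase that grew, a class kept under 2 of 10 alternatives. BAX, the effector that opens mitochondria, had effects of -0.19 and 0.28 (change 0.48, SE 0.07, limma adjusted p = 0.00645). Its reversal was not called without library 3, 4, 5 or 6 or under median-of-ratios scaling. CDKN1A, the p53-induced CDK inhibitor p21, had -0.20 and 0.08 and was not called (limma adjusted p = 0.194). MCL1, a short-lived survival protein, had -0.29 and -0.10 and was not called either (limma adjusted p = 0.0948).

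Of 12 tested alpha- and beta-tubulin genes, 7 were called below solvent and 2 above it at each time, against effects called in either direction for 23.8% of all tested genes at 16 h and 33.8% at 24 h. Free tubulin dimers are known to trigger decay of tubulin mRNA. Between the times, 1 of the 12 had a higher effect at 24 h and 2 a lower one, against 5.87% higher and 4.29% lower among all tested genes. TUBA1C had 708 and 699.8 FPKM at 100 nM and 1401 and 1425 FPKM in solvent at 16 h, and 658 and 694 FPKM at 100 nM and 1474 and 1473 FPKM in solvent at 24 h, effects of -1.004 and -1.12 whose change was not called (95% confidence interval -0.24 to 0.01, limma adjusted p = 0.207). TUBB had -1.15 and -0.87, a decrease that faded in part (change 0.28, SE 0.05, limma adjusted p = 0.0157), a call that ended without library 5, 10 or 11 (limma adjusted p up to 0.061). TUBA1A and TUBB4B were decreases that grew, with changes of -0.32 and -0.30, calls that ended under a constant prior, with no filter on low values and, for TUBA1A, without library 3, 4, 5, 6, 9, 10 or 12 (limma adjusted p up to 0.103), while that of TUBB4B ended without each of the 8 libraries in turn. Near-identical copies share reads here as well.

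Among the remaining lists, ribosomal protein genes (35 tested) and mitochondrially encoded genes (13 tested) had 0 called changes with limma (4 and 0 at an unadjusted p under 0.05), with median changes of 0.08 and 0.08. Respiratory chain genes had 1 of 29 called, SRF and actin genes 2 of 23, keratin and junction genes 2 of 19, matrix genes 1 of 21, NRF2 targets 2 of 17, Wnt targets 3 of 13, autophagy genes 2 of 19 and endoplasmic reticulum chaperones 3 of 20. Over all tested genes 10.2% were called. As deposited, the shares of the respiratory chain, SRF and matrix lists lie below that. Those of the keratin, autophagy and NRF2 lists lie close to it. The endoplasmic reticulum chaperones and Wnt targets lie above it, on 3 genes each. This order depends on the scaling. Under the other scalings the SRF list had 3 to 7 lower, the matrix list 2 to 4 and the keratin list 3 to 4. The endoplasmic reticulum chaperones had 3 to 5 lower, autophagy genes 1 to 3 higher and Wnt targets 2 to 3 higher. The 3 Wnt targets include MYC. CLDN4, an epithelial claudin, was a decrease that grew, with effects of -0.34 and -0.98 (change -0.64, SE 0.08, limma adjusted p = 0.00238).

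The rule for named genes also gave genes outside any list. SLC38A2, an amino acid transporter that adapts to amino acid supply (chromosome 12, 46358189 to 46372867), had 79.1 and 78.3 FPKM at 100 nM and 201 and 201 FPKM in solvent at 16 h. SLC38A2 had 199 and 192 FPKM at 100 nM and 200.1 and 205 FPKM in solvent at 24 h. The groups were far apart at 16 h and nearly level at 24 h (change 1.29, SE 0.06, limma adjusted p = 3.99e-05). EIF1AD, an RNA-binding protein with an initiation factor 1A domain, had effects of -1.11 and 0.24 (change 1.35, SE 0.14, limma adjusted p = 0.00111). PTBP2, a splicing repressor, had -1.12 and 0.36 (change 1.47, SE 0.32, limma adjusted p = 0.0217), a call that ended without library 3, 4, 5, 6, 10 or 12 (limma adjusted p up to 0.0749) and with no filter on low values. AC129492.3 had -2.08 and -0.68 (change 1.40, SE 0.22, limma adjusted p = 0.00714).

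Further increases that faded were AC126755.2 (change -1.15), FBRSL1 (-0.97), ZNF12 (-0.90), LMF1 (-0.80) and NABP1 (-0.78). NABP1, a single-stranded DNA-binding protein, had 12.3 and 13.97 FPKM at 100 nM and 6.95 and 6.29 FPKM in solvent at 16 h, and 13.0 and 11.5 FPKM at 100 nM and 11.1 and 11.3 FPKM in solvent at 24 h. The solvent libraries were higher at 24 h than at 16 h (limma adjusted p = 0.0066), while the difference between the times at 100 nM was not called (limma adjusted p = 0.378). ZNF12 likewise rose in solvent, from 6.64 and 6.29 FPKM at 16 h to 13.28 and 10.84 FPKM at 24 h (limma adjusted p = 0.0233). Its difference between the times at 100 nM was not called (limma adjusted p = 0.658). That difference was called at 100 nM alone for AC126755.2 and FBRSL1, and on neither side for LMF1. AC126755.2 stayed called for the change, but it was not a faded increase without library 12 or under 5 of 10 alternatives. The call of ZNF12 ended without library 3, 4, 5, 6, 10 or 11 (limma adjusted p up to 0.097), and that of LMF1 ended without library 3, 4, 6, 9, 10, 11 or 12 (limma adjusted p up to 0.124). Both also ended with no filter on low values and in a fit of the 8 libraries alone, and that of LMF1 under a constant prior. Further decreases that grew were PALM, a membrane-shaping phosphoprotein (change -0.99), ARHGAP19, a GTPase-activating protein for RhoA (-0.93), RGS3, a regulator of G protein signalling (-0.93), and SOGA1 (-0.91). RGS3 had 14.8 and 14.2 FPKM at 100 nM and 15.7 and 14.4 FPKM in solvent at 16 h, and 8.52 and 8.38 FPKM at 100 nM and 18.5 and 16.6 FPKM in solvent at 24 h. Its groups were level at 16 h and apart at 24 h (change -0.93, SE 0.10, limma adjusted p = 0.00123).

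For contrast, 1466 genes called in the same direction at both times had no called change, and the 5 with the largest smaller effect are given with the interval of the difference. TNC, tenascin C of the matrix, had effects of 1.31 at 16 h and 1.33 at 24 h, a difference of 0.02 (95% confidence interval -0.40 to 0.45). ADGRG6, an adhesion receptor, had -1.32 and -1.27 (interval of the difference -0.14 to 0.24), and MYADM had -1.25 and -1.15 (-0.25 to 0.45). TAGLN, transgelin of actin fibres, had 1.201 and 1.64, an interval of 0.10 to 0.78 and a limma adjusted p of 0.102. JUN is the fifth. A call that misses the threshold does not show that the effects were equal.

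At 20 nM the change of effect between the times was called for 1550 genes (11.5%). The comparison uses the same solvent libraries, so values are given side by side: the median change was -0.50 at 100 nM and -0.38 at 20 nM for G2 and mitosis genes, 0.32 and 0.37 for replication genes, 1.59 and 0.90 for histones, and -0.22 and -0.25 for heat shock genes. Immediate early genes had 0.62 at 100 nM and 0.29 at 20 nM. In the difference between the courses of the doses, 24 h minus 16 h at 100 nM minus the same at 20 nM, solvent cancels. It was called for 70 genes (0.52%), 37 higher (0.275%) and 33 lower (0.245%) at 100 nM, and 35 of the 70 were called for the change of the 100 nM effect. This count rests on single libraries: it was 8 without library 9, 12 without 2, 14 without 1, 16 without 4, 17 without 10, 36 without 3, 40 without 8 and 491 without 7.

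CCNE2, JUNB and HES1 were among the genes that held the difference between doses without any 1 library. RPS26P6, BCYRN1 and AL590762.4 held it too, with larger differences. Without 1 library these were 4.498 to 5.302, 7.223 to 9.606 and -2.84 to -2.614. CCNE2 had 11.98 and 11.4 FPKM at 100 nM and 20.5 and 23.5 FPKM at 20 nM at 16 h, and 52.5 and 59.7 FPKM at 100 nM and 38.3 and 36.4 FPKM at 20 nM at 24 h. It started lower and ended higher at the higher dose (difference of courses 1.43, SE 0.14, limma adjusted p = 0.0061, at most 0.0341 without 1 library). JUNB had 28.98 and 26.8 FPKM at 100 nM and 43.8 and 41.3 FPKM at 20 nM at 16 h, and 62.5 and 65.5 FPKM at 100 nM and 56.0 and 51.8 FPKM at 20 nM at 24 h (difference 0.84, limma adjusted p = 0.0061). HES1, a Notch target chosen here after its values were seen, had a difference of 0.65 (limma adjusted p = 0.0061). NR1D1 differed by 0.83 (limma adjusted p = 0.00727), which ended without library 9 (limma adjusted p up to 0.0655), and IER2 by 0.67 (limma adjusted p = 0.0208), which ended without library 1, 2, 4, 9 or 10 (limma adjusted p up to 0.106). On the lower side, DNAJB1 differed by -0.47 (limma adjusted p = 0.0061), which ended without library 9 (limma adjusted p up to 0.0601). KIF2C differed by -0.43 (limma adjusted p = 0.0138), which ended without library 1, 2, 4, 9 or 10 (limma adjusted p up to 0.0869).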

How the data were processed

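RNA of 12 HCT116 libraries was poly(A) selected and sequenced as paired reads, per the labels' protocols. The authors deposited 1 table of FPKM values, fragments scaled to transcript length and library size, per gene and library. RSEM 1.2.28 and GRCh38 come from the submitters' processing notes, and for the aligner, annotation release and strand setting nothing is given in the sources used here. The values carry no counts, so read depth and counting error are unknown. Gene symbols and positions came from GENCODE 29 on GRCh38 and matched 57836 of 58174 identifiers, and promoter windows came from RefSeq on GRCh38.p14.

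Genes with at least 1 FPKM in at least 2 libraries were tested with limma 3.58.1 in R 4.3.3 on log2(FPKM + 1), with 6 group means, a mean-dependent prior and Benjamini-Hochberg adjustment over all tested genes. Fold differences of low genes are understated on this scale. The script was tested on simulated data. The genes and the 27 lists were chosen with earlier results of these data known. The rule for named genes took, in each class, the 5 protein-coding genes with the largest called change, a group mean of at least 5 FPKM, no library at 0 and every library difference at 24 h on 1 side of each at 16 h, plus the 5 genes called alike at both times and not for the change with the largest smaller effect. Members of the lists could be named too. Alternatives changed the pseudocount, filter, scaling, prior and libraries.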

Additional observations from a re-analysis of the deposited data

Results flagged for a closer look

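Each result here is a difference between the effects of 100 nM at 24 h and at 16 h, or between the courses of 100 nM and 20 nM, and was tested as such. Groups held 2 libraries, so no library was tested as an outlier. The effect differed between the times for 1368 genes, with 168 reversed, 474 faded and 703 grown.

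The named reversals to a higher level were CCNE2 (1.95), NR1D1 (1.48), GPRC5A (1.37), NR4A2 (1.27) and IER2 (1.16), as changes on the log2(FPKM + 1) scale. Those to a lower level were GAS2L3 (-1.12), NEK2 (-1.001), CENPE (-0.94), SGO2 (-0.94) and ASPM (-0.94). Faded increases were AC126755.2 (-1.15), FBRSL1 (-0.97), ZNF12 (-0.90), LMF1 (-0.80) and NABP1 (-0.78). Faded decreases were FBXO5 (1.502), PTBP2 (1.47), AC129492.3 (1.40), EIF1AD (1.35) and SLC38A2 (1.29). Grown increases were HIST1H2BO (2.75), HIST1H2BK (2.45), HIST2H2AA4 (2.21), HIST1H1C (1.83) and HIST1H2AC (1.82). Grown decreases were PALM (-0.99), ANLN (-0.98), ARHGAP19 (-0.93), RGS3 (-0.93) and SOGA1 (-0.91). The course over time differed between 100 nM and 20 nM for 70 genes, among them CCNE2 (1.43), NR1D1 (0.83) and IER2 (0.67).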

How the results depend on the processing

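No paired analysis was possible because the columns carry library numbers and not the replicate numbers of the labels; a fit with such a block was not run. Leaving out 1 library gave 632 to 966 changed genes, 1781 to 2007 effects at 16 h, 2757 to 3048 effects at 24 h, 2057 to 2452 differences between times at 100 nM, 23 to 98 in solvent, 8 to 491 differences between dose courses, 83 to 107 reversals, 246 to 332 faded effects and 271 to 481 grown ones; these fits have fewer samples. Under the other alternatives the change was called for 935 to 1453 genes. With no filter on low values, 102 reversals and 326 solvent differences were called. Rescaled to a common sum, 1187 solvent differences and 376 differences between dose courses were called, and with a constant prior 17 of the last kind; the cause was not tested. Rescaling to a common sum took the median effect at 24 h to -0.11 (-0.02 as deposited) and gave 1146 higher and 3725 lower effects at 24 h (2075 and 2475 as deposited), 911 and 2378 at 16 h (1233 and 1972), 975 and 212 solvent differences (423 and 333), 52 and 99 reversals (95 and 73) and 181 and 633 grown effects (354 and 349). Rescaling over nuclear genes, chosen after seeing the data, gave 1436 and 3328 effects at 24 h, 1472 and 2473 differences at 100 nM (2202 and 1491), 379 and 581 in solvent, 62 and 106 reversals and 215 and 565 grown effects. Median-of-ratios scaling gave 1642 and 1653 effects at 16 h and 358 and 572 solvent differences. The median change of p53 targets (0.02) became -0.03 and that of endoplasmic reticulum chaperones (0.06) became -0.0016 under 1 scaling. Uncalled changes crossed 0 for ADGRG6 (-0.0059 on a common sum, -0.0016 over nuclear genes), TNC (-0.011 and -0.0083, and -0.037 to 0.084 over the fits without 1 library, below 0 without 3, 6, 9 or 12) and MYADM (-0.071 to 0.27, below 0 without 3). The 8 libraries alone give no comparison of doses. Of the refits of named genes, 339 of 350 kept direction and call across settings and 250 of 280 across libraries.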

Other observations

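The following list members changed too, each called without any 1 of the 8 libraries. HMOX1, heme oxygenase 1, had 13.8 and 12.2 FPKM at 100 nM and 18.6 and 19.6 FPKM in solvent at 16 h, and 20.3 and 20.3 FPKM at 100 nM and 17.0 and 16.6 FPKM in solvent at 24 h (change 0.78, SE 0.10, limma adjusted p = 0.00245). ME1, the cytosolic malic enzyme, had effects of -0.31 at 16 h and -0.78 at 24 h (change -0.47, SE 0.06, limma adjusted p = 0.00347). These were the 2 called among 17 NRF2 targets, with opposite signs. IFIT1, an interferon-induced RNA-binding protein, had effects of 0.34 and 0.93 (change 0.59, SE 0.11, limma adjusted p = 0.0112). NR4A1, an orphan nuclear receptor of the immediate early genes, had -0.30 and 0.49 (change 0.78, SE 0.14, limma adjusted p = 0.0105). SOX4, a developmental transcription factor, had -1.01 and -0.58 (change 0.43, SE 0.07, limma adjusted p = 0.00931), SDC1, the cell-surface proteoglycan syndecan 1, had -0.58 and -1.05 (change -0.47, SE 0.08, limma adjusted p = 0.00995), and CCNG1, a p53-induced cyclin, had -0.18 and -0.47 (change -0.30, SE 0.05, limma adjusted p = 0.012).

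FAM83D, a spindle protein chosen here after its values were seen, was 1 of the genes whose course differed between the doses without any 1 library. FAM83D had 37.0 and 38.3 FPKM at 100 nM and 35.3 and 34.9 FPKM at 20 nM at 16 h, and 22.9 and 22.5 FPKM at 100 nM and 35.0 and 35.2 FPKM at 20 nM at 24 h (difference of courses -0.70, SE 0.06, limma adjusted p = 0.0061).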
